A study of Bos taurus with 8 samples.

Results

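The genes described here make, move and break down prostaglandins: PTGS1, PTGS2, PTGES, PTGES2, PTGES3, PTGIS, PTGDS, HPGD, SLCO2A1 and 20ALPHA-HSD. They were chosen by name, with earlier results of these data known, and their probes were found through the RefSeq accession that each probe carries. They are 10 of the 12602 bovine genes with a named probe on the array and take up 25 of its 43637 probes used. RNA came from stem-like cells grown out of blastocysts (eSLCs) and from cultured somatic cells (SCs), all of HanWoo cattle, each sample on an Agilent one-colour array of its own. IVP-eSLCs came from in vitro produced embryos (lines I2, passage 35, and I9, passage 30), NT-eSLCs from somatic cell nuclear transfer embryos (lines N2, passage 36, and N7, passage 30) and PA-eSLCs from parthenogenetic embryos (lines P1, passage 31, and P4, passage 36). SCs were taken at passages 5 and 10 (SC P5 and SC P10), and the labels give neither their tissue nor whether these were separate cultures, so p-values measure the spread between these samples.

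Each eSLC line was a colony from 1 blastocyst, grown on mitomycin-C inactivated murine STO feeder cells in 3i medium, a serum-free medium with the inhibitors PD184352, SU5402 and CHIR99021. SCs grew in DMEM with fetal bovine serum, and all eSLC lines were at later passages than SCs. Medium, feeder and passage therefore cannot be told apart from cell type in any comparison with SCs. The donor cell of NT embryos was from ear skin.

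Prostaglandins are lipid signals made from arachidonic acid, which phospholipases cut from membranes. The cyclooxygenases PTGS1 and PTGS2 turn it into prostaglandin H2, and terminal synthases then make prostaglandin E2, D2, F2α or prostacyclin. The carrier SLCO2A1 takes prostaglandins up into cells, where HPGD inactivates them. In cattle the trophectoderm of the elongating conceptus is known to secrete prostaglandins, and PTGS2 is the inducible and often limiting step.

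Signals were background-subtracted and scaled so that the 75th percentile of each array is 1000, and signals under 13.3, the floor that every array could resolve, were set to it. A probe was counted as detected where the scanner software called it well above background. A gene is given by its brightest probe, a difference is on the log2 scale of the floored signal, and a gene was called at a Benjamini-Hochberg adjusted p under 0.05 over all 10956 genes tested (limma) and a difference of at least 2-fold. Between 71.2% and 76.7% of spots were well above background, and log2 signals correlated at 0.95 to 0.99 between eSLC arrays and at 0.76 to 0.80 between eSLC and SC arrays. Of the trophectoderm markers tested, 11 of 13 were higher in eSLCs, and their summed signal was 518800 to 1719000 in eSLCs and 17660 to 17870 in SCs. Of the fibroblast markers, 10 of 12 were lower in eSLCs, with sums of 13500 to 69900 against 747200 to 917900. The pluripotency gene POU5F1 lay at 30.8 to 101 in 5 eSLC lines and at 899 in N7, against 16.3 and 26 in SCs, and NANOG did not exceed 35.4 on any array. Of the 5 epiblast markers tested, LIN28A (4.28) and DPPA4 (3.45) were higher in eSLCs and SOX2 (-2.91) was lower, while POU5F1 and NANOG were not called. In RNA of whole cultures, a change in the share of a cell type and a change in RNA per cell cannot be told apart. The part of these markers in the results was not tested.

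Across the 6 eSLC lines, 5 of the 10 genes were higher than in SCs (PTGS1, PTGS2, PTGES, PTGIS and SLCO2A1), HPGD was lower, and PTGES2, PTGES3, PTGDS and 20ALPHA-HSD were not called. Over all genes tested, 19.7% were called higher and 15.7% lower. The eSLC arrays lay above both SC arrays for 7 of the 10 genes and below them for 1, against 34% and 23.6% of all genes. By size alone, 5 of the 10 genes were higher by 4 or more on the log2 scale and 1 was lower by as much, against 4.34% and 3.75% of all genes. Since the 10 genes were chosen with earlier results of these data known, these shares are a description and not a test. All 10 genes passed the filter on dim genes, but HPGD did so through SCs, and SLCO2A1 and 20ALPHA-HSD through eSLCs. The other 7 were well above background on all 8 arrays. The median difference of the 10 genes was 3.38, against 0.23 over all genes, and it was 1.75 with the mean of each gene's probes. The direction of PTGS1 depended on the probe, and without it 4 genes were higher. The plot of signals by array shows the separation.

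**Figure D1:**
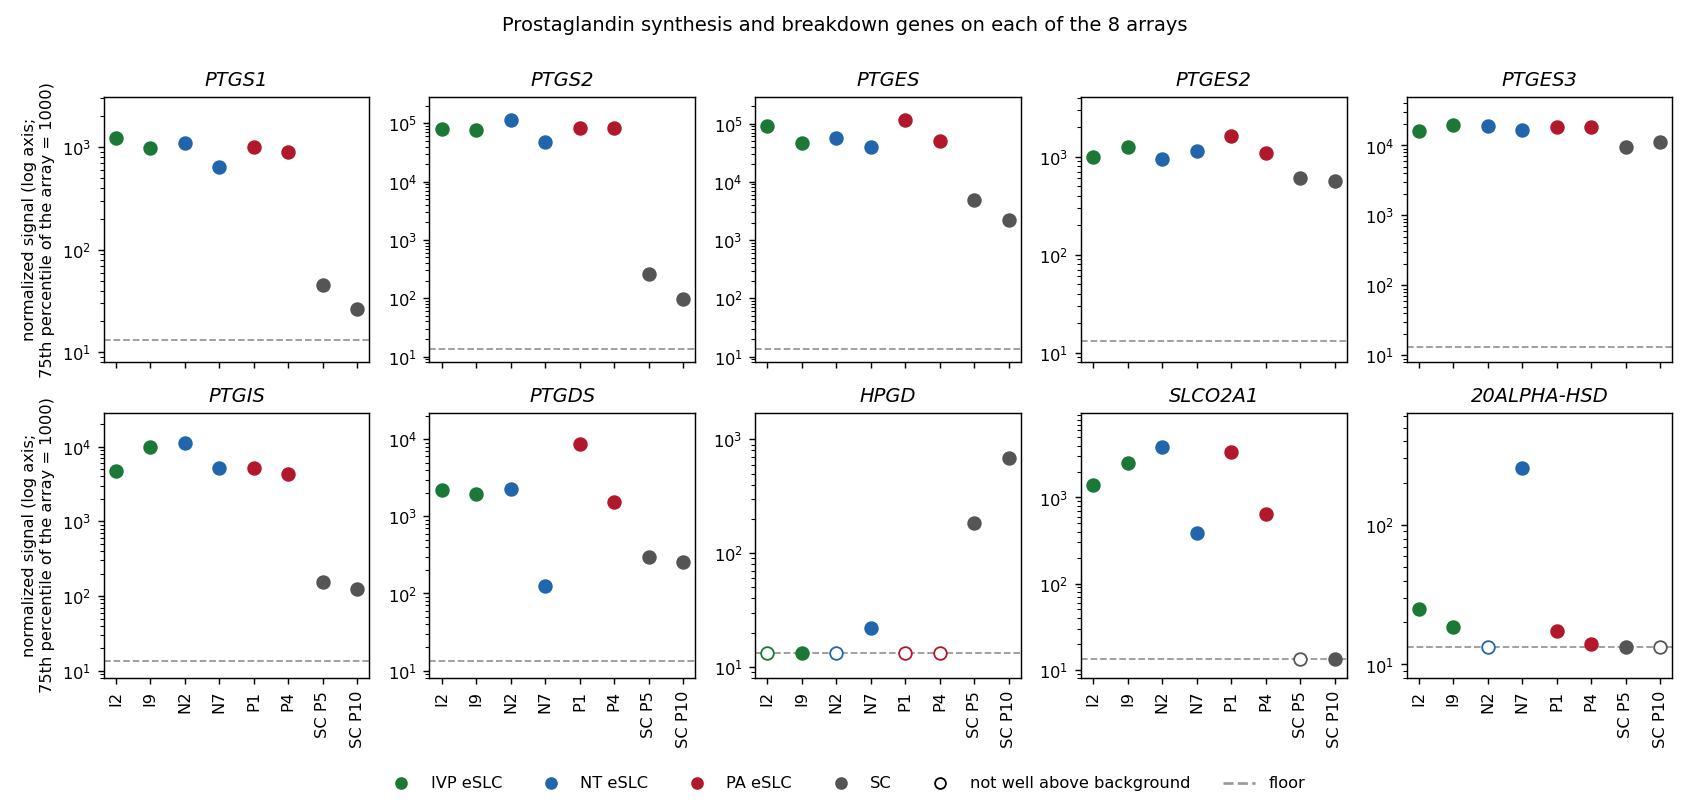
Normalized signal of the 10 genes (log axis, 75th percentile of each array at 1000) on the 8 arrays, by the brightest probe, with open circles where a probe was not well above background and a dashed line at the floor of 13.3. PTGS2 was at 48060 or more on every eSLC array and at 257.5 or less in SCs, HPGD was at 184 or more in SCs and at 22.1 or less in eSLCs, and N7 stood apart for PTGDS and 20ALPHA-HSD.

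Both cyclooxygenases were measured. PTGS2 (NM_174445), the inducible cyclooxygenase, was at 81370 in I2, 77850 in I9, 112400 in N2, 48060 in N7, 84240 in P1 and 84260 in P4. It was at 257.5 in SC P5 and 97.5 in SC P10. The lowest eSLC signal was 187 times the highest SC signal. The difference was 8.96 ± 0.46 (SE), or 498-fold, with a 95% interval of 7.83 to 10.09 and an adjusted p of 4.76e-05 in limma. All 3 PTGS2 probes were higher in eSLCs, by 4.56 to 8.96, and on 2 of them SC signals were at the floor. Among the eSLC lines PTGS2 spanned 2.34-fold, from N7 to N2.

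PTGS1 (NM_001105323), the cyclooxygenase that most tissues express constantly, gave opposite directions on its 3 probes. The brightest probe read 1232 in I2, 982 in I9, 1091 in N2, 640 in N7, 999 in P1 and 889 in P4, against 45.1 and 26.5 in the SC arrays of passages 5 and 10. It was higher in eSLCs by 4.79 ± 0.30 (SE, adjusted p = 0.00011 in limma). The second probe read 45.4 to 220 in eSLCs and 2605 and 3864 in SCs, a difference of -5.00 ± 0.63 (adjusted p over probes = 0.00183). The last probe read 50.8 to 80.2 in eSLCs and 195 and 214 in SCs, a difference of -1.65 ± 0.18 (adjusted p over probes = 0.00103). On none of the 3 probes did eSLC and SC arrays overlap, and all were well above background on all 8 arrays. Over the 8 arrays these other probes correlated with the brightest at -0.93 and -0.97, a description of a split between the same 6 eSLC and 2 SC arrays. The mean of the 3 probes differed by -0.62 (adjusted p = 0.101), so these arrays give no single direction for PTGS1.

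**Figure D2:**
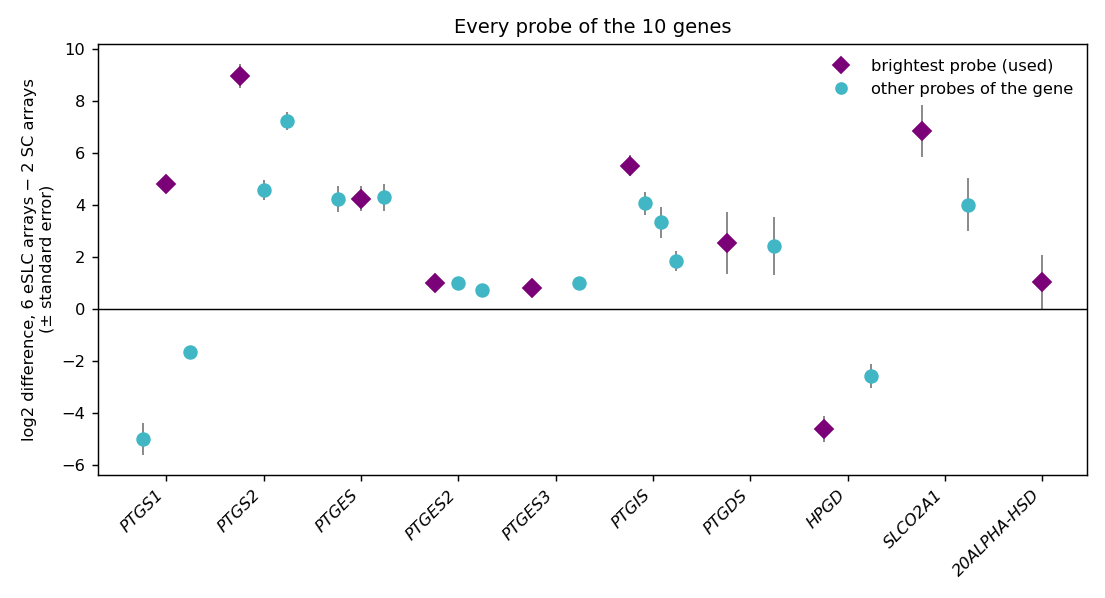
Log2 difference between the 6 eSLC arrays and the 2 SC arrays (± SE, limma) for each of the 25 probes of the 10 genes, with the brightest probe of each gene as a diamond. The probes of 8 genes with several probes lie on 1 side of 0 for each gene, while PTGS1 has 1 probe at 4.79 and the others at -1.65 and -5.00.

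Across all 25 probes, 13 were higher, 4 were lower and 8 were not called, where 17.9% of all named probes tested were called higher and 16% lower. Of the 9 genes with several probes, PTGS1 was the 1 gene whose probes had opposite signs. Probes of a gene share its transcripts, so they are not replicates.

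Several enzymes convert prostaglandin H2 into prostaglandin E2, of which PTGES is the inducible membrane-bound form. PTGES (NM_174443) was at 91350 in I2, 45480 in I9, 55980 in N2, 39740 in N7, 113600 in P1 and 50620 in P4, against 4879 (SC P5) and 2177 (SC P10). No arrays overlapped, and the lowest eSLC signal was 8.15 times the highest SC signal. The difference was 4.23 ± 0.49 (SE, adjusted p = 0.00112 in limma), or 18.8-fold, and its 3 probes lay within 4.21 to 4.29. SC signals of PTGES were well above the floor.

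PTGES2 (NM_001166554), a membrane-associated synthase of the Golgi, was at 994 in I2, 1260 in I9, 944 in N2, 1156 in N7, 1623 in P1 and 1095 in P4, against 600 and 571 in SCs. The sides did not overlap, but the difference of 0.99 ± 0.22 (SE, adjusted p = 0.0128 in limma) was under 2-fold, so it was not called. It passed 2-fold without I2 (1.04), without N2 (1.03) or without P4 (1.08). PTGES3 (NM_001007806), a cytosolic synthase that is also the HSP90 co-chaperone p23, was at 16150 to 19600 in eSLCs and at 9660 and 11270 in SCs. Its difference of 0.79 ± 0.16 (SE, adjusted p = 0.0101 in limma) was under 2-fold as well. Relative to the median of all genes, which was higher in eSLCs by 0.23 at this scaling and by 0.12 after quantile normalization, the differences of PTGES2 and PTGES3 were 0.76 and 0.56. Among the eSLC lines PTGES3 spanned 1.21-fold, the narrowest range of the 10 genes, and PTGES spanned 2.86-fold.

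PTGIS, the prostacyclin synthase, separated the groups as well. PTGIS (NM_174444) was at 4715 in I2, 9797 in I9, 11310 in N2, 5140 in N7, 5143 in P1 and 4249 in P4, against 152 (SC P5) and 125 (SC P10). The lowest eSLC signal was 27.9 times the highest SC signal. The difference was 5.50 ± 0.40 (SE, adjusted p = 0.000191 in limma), or 45.2-fold. Its 4 probes were all higher in eSLCs, by 1.84 to 5.50.

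PTGDS, which makes prostaglandin D2 and also carries lipids in body fluids, overlapped between eSLCs and SCs. PTGDS (NM_174791) was at 2194 in I2, 1968 in I9, 2258 in N2, 126 in N7, 8820 in P1 and 1546 in P4, with SC P5 at 298 and SC P10 at 257. N7 lay below both SC arrays and the other 5 lines above them, a range of 70.2-fold among eSLCs. The difference of 2.53 ± 1.16 (SE, 95% interval -0.31 to 5.37, adjusted p = 0.123 in limma) was not called. Without N7 it was 3.22 (adjusted p = 0.0204 in limma).

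HPGD, the enzyme that begins the inactivation of prostaglandins by oxidizing their 15-hydroxyl group, went the other way. HPGD (NM_001034419) was at the floor of 13.3 in I2, I9, N2, P1 and P4 and at 22.1 in N7, with SC P5 at 184 and SC P10 at 684. This probe was well above background in I9 and N7 alone among the eSLC lines and in both SC arrays. The lowest SC signal was 8.34 times the highest eSLC signal. The difference was -4.62 ± 0.50 (SE, adjusted p = 0.000857 in limma). Arrays set to the floor show no spread, so this SE and p-value can be too small. In PA-eSLCs, where neither array was well above background, HPGD was at least 32.4-fold lower than in SCs. This bound sets the dim side, on each array, at its lowest signal well above background or at the probe's own signal where higher, and that limit can be under 13.3, and the fold at the common floor was 26.7. The second HPGD probe was also called and fell by 2.58. On it N7 was at the floor and N2, at 15.8, was the only eSLC line above it, so the probes differ in which line was highest.

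SLCO2A1, the prostaglandin carrier of the cell membrane, was at 1409 in I2, 2512 in I9, 3837 in N2, 391 in N7, 3372 in P1 and 642 in P4. SLCO2A1 (NM_174829) was at the floor of 13.3 on both SC arrays and well above background on SC P10 alone. The lowest eSLC signal was 29.4 times the floor. SC signals set to the floor show no spread, so the SE and p-value of SLCO2A1 can be too small. The difference of 6.82 ± 0.99 (SE, adjusted p = 0.00274 in limma) depends on the floor, and the call was lost without SC P5 (adjusted p = 0.0504). The lines spanned 9.82-fold, with N7 and P4 lowest, and the second probe had the same order of lines at lower signals, from 54.6 in N7 to 552 in N2.

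20ALPHA-HSD, an aldo-keto reductase that acts on progesterone, was near the floor in most cultures. 20ALPHA-HSD (NM_001167660) was at 24.9 in I2, 18.7 in I9, 13.3 in N2, 254 in N7, 17.3 in P1 and 14.1 in P4, and at the floor of 13.3 in both SC arrays. It was not well above background in N2 and SC P10. Its difference was 1.02 ± 1.02 (SE, adjusted p = 0.444 in limma), and without N7 it was 0.31 (adjusted p = 0.22 in limma). Without N2 it was called (1.73, adjusted p = 0.00319), since N7 then stood alone for NT-eSLCs and was assumed to vary like the other groups. Its relatives AKR1C3 and AKR1C4 were also highest in N7, at 641 and 966, against 17.1 to 89.9 and 13.3 to 71.6 in the other lines. These genes are similar in sequence, and probes may share transcripts among them.

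N7 was the lowest of the 6 eSLC lines for 5 of the 10 genes (PTGS1, PTGS2, PTGES, PTGDS and SLCO2A1) and the highest for HPGD and 20ALPHA-HSD, each by the brightest probe. On the other HPGD probe N7 was at the floor, and on the last PTGS1 probe it was the highest line. Some markers of the hypoblast, the yolk sac lineage of the blastocyst, were also high in N7. HNF4A was at 9030 in N7 and at 13.3 to 23.4 in the other lines, APOA1 at 113000 against 1100 to 6820, GATA4 at 2920 against 23.2 to 180, and PDGFRA at 1420 against 42.6 to 276. SOX17 in N7 (2670) lay within the other lines (1910 to 2950), and AFP was lowest in N7 (15.9 against 20.1 to 26.8). The summed signal of the 6 hypoblast markers was 3656 to 128800 across eSLCs and 12860 to 14780 in SCs, with APOA1 the bulk of the N7 sum, and their part in the N7 values was not tested. Without N7 the difference from SCs was 9.17 for PTGS2, 4.32 for PTGES, 5.69 for PTGIS, 7.37 for SLCO2A1 and -4.74 for HPGD, so these were as large without that line.

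The 8 arrays lay on 2 slides, each with 3 eSLC arrays and 1 SC array. Slide 1 held I2, I9, N7 and SC P5, and slide 2 held N2, P1, P4 and SC P10. The difference on slide 1 and on slide 2 was 8.03 and 9.89 for PTGS2, 3.49 and 4.98 for PTGES, 5.34 and 5.65 for PTGIS, 6.39 and 7.25 for SLCO2A1, and -3.55 and -5.68 for HPGD. For the brightest PTGS1 probe it was 4.35 and 5.22, for PTGES2 0.91 and 1.06, for PTGES3 0.85 and 0.72, for PTGDS 1.45 and 3.61 and for 20ALPHA-HSD 1.88 and 0.15. Every sign was the same on both slides. With slide as a block in the fit the same 6 genes were called. SC P5 was 2.64-fold above SC P10 for PTGS2 and 2.24-fold above it for PTGES, while HPGD was 3.71-fold higher in SC P10. Passage and slide cannot be told apart for these SC arrays, and no test is possible between 1 array and 1.

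Each embryo origin was then set against SCs, with the same SC arrays in all 3 comparisons, so their results are not independent. In IVP-eSLCs 5 genes were higher and 1 lower, where 17.7% and 14.6% of all genes were called. In NT-eSLCs 5 were higher and 1 lower, against 15.8% and 13.9% of all genes. In PA-eSLCs 6 were higher and 1 lower, against 20.3% and 14.9% of all genes. The gene called in PA-eSLCs in addition was PTGES2 (1.19, adjusted p = 0.0158 in limma), which was at 0.94 in IVP-eSLCs and 0.84 in NT-eSLCs. For PTGS2 the differences of IVP-, NT- and PA-eSLCs from SCs were 8.97, 8.86 and 9.05. For HPGD they were -4.74, -4.37 and -4.74, with most eSLC signals at the floor.

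**Figure D3:**
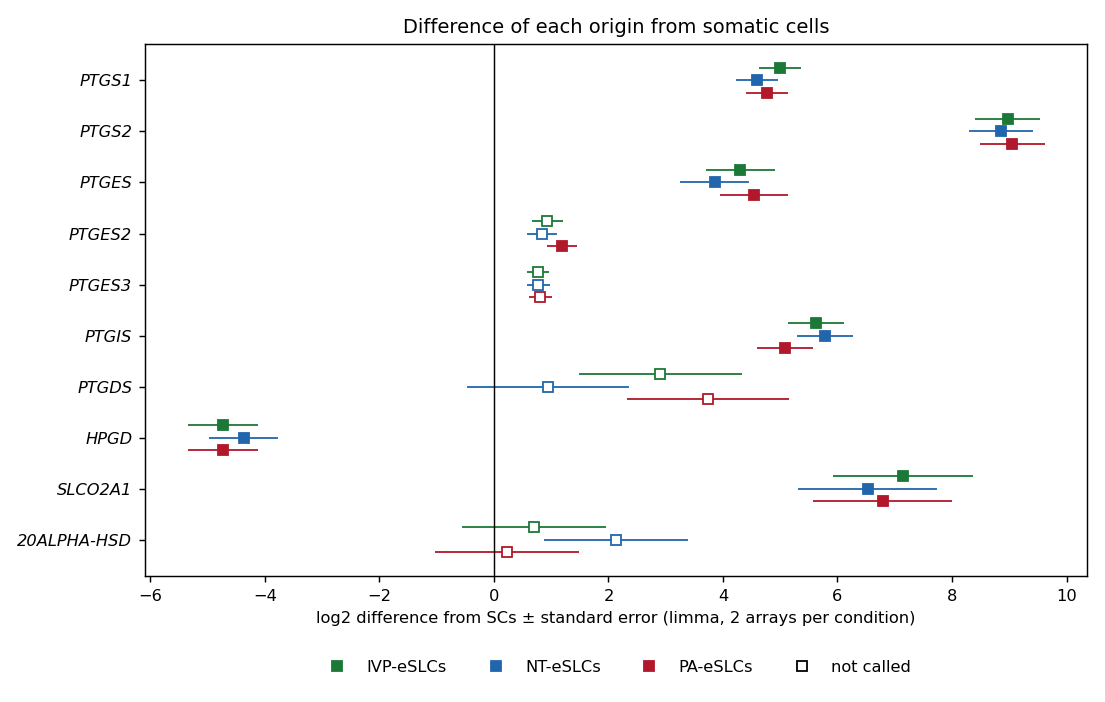
Log2 difference from SCs (± SE, limma, 2 arrays per condition) of the 10 genes in IVP-, NT- and PA-eSLCs, with filled squares where a gene was called. The 3 origins lie close together for PTGS2 (8.86 to 9.05) and apart for PTGDS (0.94 to 3.74), whose standard error is 1.42, and the PTGS1 values are those of the brightest probe and turn sign on its other probes.

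Between origins no gene was called. With IVP-eSLCs as the reference, both for NT- and for PA-eSLCs, 0 of the 10 genes and 0% of all genes were called by limma, and 0 of the 10 genes had an unadjusted p under 0.05, while 307 and 567 genes of the whole array did. The methods' t-test without adjustment also called 0 of the 10 genes in both comparisons. The PA minus IVP values mix origin with slide, because I2 and I9 shared slide 1 while P1 and P4 shared slide 2. They are therefore not differences of origin alone. N7 was on slide 1 and N2 on slide 2, so NT minus IVP values are mixed with slide in part. With slide as a block in the fit, 0 of the 10 genes were called in either comparison. For PTGS2 the NT minus IVP difference was -0.12, with a 95% interval of -1.49 to 1.26, and the PA minus IVP difference was 0.08, with an interval of -1.30 to 1.46. PTGES3 had the narrowest intervals, -0.48 to 0.49 and -0.45 to 0.53. For PTGDS the intervals ran from -5.45 to 1.52 and from -2.65 to 4.31, so differences of many fold were not detectable with 2 arrays per condition. The 2 NT lines were farther apart in PTGDS than any origin was from another, at 2258 in N2 and 126 in N7.

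Genes upstream and downstream of the 10 were counted from lists of the pathway. Of 57 such genes with a probe, 48 were tested. Of these, 15 were higher in eSLCs and 12 lower, against 19.7% and 15.7% of all genes, and 21 were not called. The total of 27 called fell to 16 without SC P5 and to 15 without SC P10. Calls over all genes fell as well in both of these fits, which leave 1 SC array, so the drop is not particular to the pathway genes. The median difference of the 48 genes was 0.53, against 0.23 over all genes. The list with the most calls in 1 direction was that of the prostanoid receptors, shown in the plot of other pathway genes. The filter on dim genes favours that direction for them.

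**Figure D4:**
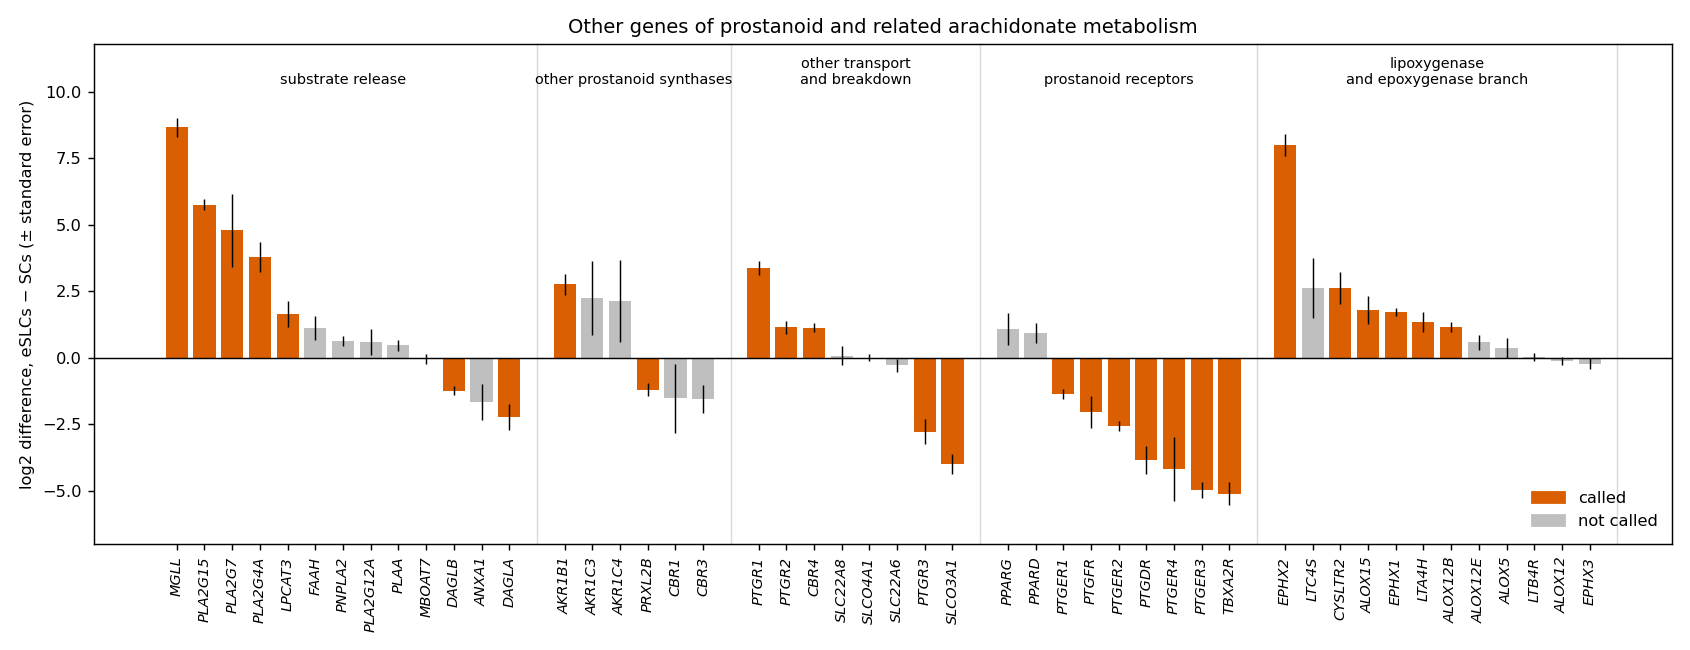
Log2 difference between eSLCs and SCs (bars, ± SE, limma) for the 48 other genes tested of prostanoid and related arachidonate metabolism, in 5 lists, with called genes in orange. Bars of 7 of the 9 receptor-list genes are below 0 and called, while MGLL (8.67) and EPHX2 (8.003) are the tallest bars above 0.

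Among all genes tested, 15.7% were called lower and 19.7% higher. Of the 9 receptor genes tested, 7 were lower in eSLCs, 0 were higher and 2 were not called in limma. Their median was -2.56. At an unadjusted p under 0.05, 0 were higher as well, and the methods' t-test called 0 higher. PPARD was called higher without N7, and PPARG passed the 2-fold rule without a test. Of the 9 genes, 4 were well above background on all 8 arrays, with a median of -0.55 and 2 of them lower (PTGER4 and PTGFR). The other 5 passed the filter on dim genes through SCs, where they were high, so they could hardly be called higher. The filter thus favours genes that are lower in eSLCs. The counts of 0 higher and 7 lower and the median are therefore a description. With no filter on dim genes, 5 of 10 receptor genes were lower (median -2.3), against 1566 of 12602 genes of the whole array. All 7 were receptors of the cell surface. TBXA2R, the thromboxane receptor, was at the floor of 13.3 in I9, N2, N7 and P4, at 29.3 in I2 and at 33.4 in P1, against 561 and 656 in SCs (-5.10 ± 0.44 SE, adjusted p = 0.000359 in limma). PTGER3, a prostaglandin E2 receptor, was at the floor on all 6 eSLC arrays and at 603 and 284 in SCs (-4.96 ± 0.29 SE, adjusted p = 7.93e-05). PTGER2, another E2 receptor, was at the floor in eSLCs and at 93.8 and 65.6 in SCs (-2.56 ± 0.18 SE, adjusted p = 0.000167). These differences depend on the floor. Arrays set to the floor show no spread, so the SEs and adjusted p-values of these genes can be too small. Other probes of PTGER3 and PTGER2 were well above background on 5 and 1 of the eSLC arrays.

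PTGER4, a further E2 receptor, was at 65.3 in I2, 364 in I9, 369 in N2, 29.8 in N7, 351 in P1 and 64.6 in P4, against 2640 and 2210 in SCs (-4.17 ± 1.198 SE, adjusted p = 0.0322). PTGDR, a prostaglandin D2 receptor, fell by 3.84, PTGFR, the prostaglandin F2α receptor, by 2.04 and PTGER1 by 1.36. Other probes gave smaller falls, with differences as small as -0.48 for PTGER4, -0.78 for PTGFR and -0.24 for PTGER2. For TBXA2R and PTGER3 the smallest were -1.38 and -3.18. PPARG and PPARD, nuclear receptors that some prostaglandins bind, were not called (1.08 and 0.94). The prostacyclin receptor PTGIR was at the floor on all 8 arrays and was not tested. PTGER4 and PTGFR lost their calls without I2, without P4, without SC P5 or without SC P10, which left 5 receptors lower in each case, and PTGFR also without P1. With normexp background correction, PTGER1 and PTGER2 lost theirs.

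Among 13 tested genes that release or re-attach arachidonate, 5 were higher and 2 lower (median 0.65), against 19.7% and 15.7% of all genes. The other 6 were not called. PLA2G4A, the cytosolic phospholipase that cuts arachidonate from membranes, was at 4920 in I2, 3170 in I9, 3590 in N2, 1020 in N7, 3390 in P1 and 2170 in P4, against 294 and 131 in SCs. The sides did not overlap, and the difference was 3.80 ± 0.57 (SE, adjusted p = 0.00301 in limma). MGLL, the monoacylglycerol lipase that frees arachidonate from 2-arachidonoylglycerol, was at 10100 to 33300 in eSLCs and at 50.4 and 50.7 in SCs (8.67 ± 0.37 SE, adjusted p = 2.45e-05). PLA2G15, a lysosomal phospholipase, rose by 5.77, PLA2G7, which breaks down platelet-activating factor, by 4.79 and LPCAT3, which puts arachidonate back into phospholipids, by 1.66. DAGLA and DAGLB, the lipases that make 2-arachidonoylglycerol, fell by 2.21 and 1.23. The other probes of DAGLA and DAGLB reached differences of 0.05 and 4e-04, and DAGLB was not called with the mean of its probes or with the authors' processed values. The smallest probe differences were 2.91 for MGLL, 4.50 for PLA2G15, 4.65 for PLA2G7 and 0.37 for LPCAT3. LPCAT3 was not called with the mean of its probes. MGLL, PLA2G15 and DAGLB were called whichever array was left out, while PLA2G4A lost its call without SC P10, and PLA2G7, LPCAT3 and DAGLA without SC P5 and without SC P10. PLA2G7 and LPCAT3 also lost theirs without I9, without P1 or without P4, and PLA2G7 without I2.

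Of 6 other synthases tested, 1 was higher and 1 lower (median 0.48), against 19.7% and 15.7% of all genes. AKR1B1, an aldose reductase that in the bovine endometrium makes prostaglandin F2α, was at 118000 in I2, 160000 in I9, 248000 in N2, 92100 in N7, 202000 in P1 and 134000 in P4, against 23700 and 20800 in SCs. The difference was 2.76 ± 0.40 (SE, adjusted p = 0.00282 in limma), and all 4 of its probes were higher in eSLCs, by 2.76 to 3.69. PRXL2B, a prostamide and prostaglandin F synthase, fell by 1.19. The thromboxane synthase gene TBXAS1 was at the floor on all 8 arrays and was not tested. Without N2, 3 synthases were higher and 2 lower, with AKR1C3, AKR1C4 and CBR3, a carbonyl reductase, called in addition. Without SC P5, PRXL2B lost its call.

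Of 8 other genes of transport and breakdown, 3 were higher and 2 lower (median 0.04), against 19.7% and 15.7% of all genes. The other 3 were not called. PTGR1, the reductase that acts on the keto product of HPGD, was at 27700 to 50800 in eSLCs and at 3860 and 2970 in SCs (3.38 ± 0.27 SE, adjusted p = 0.000261 in limma). PTGR2, a reductase of the same step, and CBR4, a carbonyl reductase, rose by 1.16 and 1.14. PTGR3, a further reductase of that family, fell by 2.77, and the carrier SLCO3A1 fell by 3.98. PTGR2 and PTGR3 lost their calls without SC P5 and without SC P10. With the authors' processed values PTGR2 and CBR4 were not called.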

How the data were processed

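The authors hybridized Cy3-labelled RNA to Agilent bovine arrays, scanned them and quantified spots with Feature Extraction (version 11.5.1.1 per the file headers). The deposited scanner output gives linear intensities that were not normalized across arrays. The authors' processed values, also linear intensities, were normalized in GeneSpring and served as an alternative. The processed signal of 6 of the 8 scanner files was out of step with the other signals of each spot (Spearman correlation 0.159 to 0.215, against 0.971 and 0.973 in the others), so the background-subtracted signal was used.

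Control spots and 1 to 11 outlier spots per array were left out, as were 16 probes with no spot left on some array, and no spot was saturated. Probes were named by accession through a RefSeq gene table (26731 probes). The 75th percentile was 1191 to 4086 scanner units, 75.2 to 136 times the array's lowest detected signal, and the number of arrays limits the precision. A gene was tested if both arrays of some condition were well above background for it. limma (version 3.58.1, R 4.3.3) compared conditions with all 8 arrays in 1 fit, after it was tested on simulated data. The all-eSLC comparison took the mean of the 3 origin means. Figures used matplotlib version 3.10.9 in Python version 3.11.15. Normexp, an alternative, used median signals, since mean signals were not in the columns used.

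The genes, pathway lists and markers were chosen with earlier results of these data known. The text names the 10 genes, every pathway gene called, and the 3 genes most like PTGS1, PTGS2 and HPGD, with other genes of the lists, such as AKR1C3, named after their values were seen. No sequence is shown. Genome positions were not used here.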

Additional observations from a re-analysis of the deposited data

Results flagged for a closer look

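In 2 of the 10 genes 1 of the 6 eSLC arrays stood far from the others by Dixon's ratio of its gap to the range (critical value 0.625), and chance alone marks about 1 in 20 such groups. 20ALPHA-HSD was highest in N7, at 254, with a ratio of 0.788. HPGD was highest in N7, at 22.1, with a ratio of 1, since the other lines were at the floor. On the other HPGD probe N7 was at the floor and N2 was highest, at 15.8. The cause of either value was not tested.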

How the results depend on the processing

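The alternatives changed scaling, signal, filter, floor, probes, the arrays counted, the slide and the test. The count of genes called for all eSLCs against SCs, 6, stayed within 4 to 8 over 21 alternatives, and PTGS2, PTGES, PTGIS and HPGD were called wherever they were tested by limma. HPGD, SLCO2A1 and 20ALPHA-HSD were not tested where all 8 arrays had to be well above background. The number of all genes called varied over the alternatives as well. PTGS1 reversed with the mean of its probes (-0.62) and on its other probes (-5.00 and -1.65, chosen after seeing the data), for which the cause was not tested. PTGDS was called with the authors' own processed values (2.61, adjusted p = 0.00923 in limma). With the methods' t-test after Benjamini-Hochberg adjustment, called genes fell to 2 in IVP-, 0 in NT- and 3 in PA-eSLCs against SCs. The share of all genes called by that test for each origin is not given here, so these counts are a description. Between NT- and IVP-eSLCs, 2-fold without a test selected 2 genes, PTGDS and 20ALPHA-HSD.

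Leaving out 1 array gave 5 to 8 genes for all eSLCs, 5 to 7 for IVP-, 4 to 7 for NT- and 5 to 8 for PA-eSLCs against SCs, 0 to 1 for NT- against IVP-eSLCs (1 without N2) and 0 for PA- against IVP-eSLCs. Of the other pathway genes, 27 were called, and 15 to 32 with 1 array left out (16 without SC P5 and 15 without SC P10), and 16 with the SC arrays counted as 1 sample, which leaves fewer samples. A lone array of a condition was assumed to vary like the other groups. Calls over all genes also fell without SC P5, without SC P10 and with the SC arrays counted as 1 sample. The fit to only the conditions compared is the same fit for all eSLCs. No paired analysis was possible because every label gives replicate 1, and the numbers used here only name the arrays.

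Signals near the floor, as for HPGD in eSLCs and SLCO2A1 in SCs, give only a limit on a fold. The 2 SC arrays set the spread of that side. The floor also narrows differences of dim genes. It removes the spread among arrays set to it, so SEs and p-values of such genes can be too small.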

Other observations

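Arachidonate is also used by lipoxygenases and epoxygenases. Of 12 genes of these branches tested, 6 were higher in eSLCs than in SCs and 0 lower in limma (median 1.25). Among all genes 19.7% were higher and 15.7% lower, and the other 6 genes of the list were not called. At an unadjusted p under 0.05, and by the methods' t-test, 0 of the 12 were lower as well. ALOX5, ALOX15 and CYSLTR2 were not well above background in SCs and passed the filter through eSLCs, so they could not be called lower. The filter thus favours genes that are higher in eSLCs, and the counts are a description. With no filter on dim genes, 4 of 15 genes of the list were higher (median 0.58), against 1922 of 12602 genes of the whole array. Of the 8 genes well above background on all 8 arrays, 4 were higher and 0 lower (median 1.25). The count of 6 higher fell to 3 without I2, to 4 without P1, to 3 without SC P5 and to 2 without SC P10. In each of these fits fewer genes of the whole array were called higher as well. EPHX2, the soluble epoxide hydrolase that breaks down epoxides of arachidonate, was at 4860 in I2, 6490 in I9, 6040 in N2, 2390 in N7, 6910 in P1 and 4550 in P4, with SC P5 at 23.6 and SC P10 at 15.6. Its difference was 8.003 ± 0.41 (SE, adjusted p = 4.7e-05 in limma), and the groups did not overlap. The other EPHX2 probe differed by 3.97. EPHX1, its microsomal relative, rose by 1.73, LTA4H, which makes leukotriene B4, by 1.34 and ALOX12B, a lipoxygenase of the epidermis, by 1.16. With the authors' processed values EPHX1, LTA4H and ALOX12B were not called, while LTC4S, another gene of the list, was called higher. The other ALOX12B probe differed by 0. CYSLTR2, a receptor of cysteinyl leukotrienes, and ALOX15, a lipoxygenase, were not well above background in SCs. On their brightest probes they were at least 9.72-fold and 5.51-fold higher in eSLCs, with SCs set at the limit of each array as for HPGD. At the common floor of 13.3 the folds were 6.17 and 3.5. The other CYSLTR2 probe differed by 0.97 and the other ALOX15 probe by 0. In N2 the brightest ALOX15 probe was at 14.2, near the floor. Neither gene was called with normexp, and ALOX15 was not called with the mean of its probes.

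Over the 6 eSLC arrays, the genes whose log2 signal was most like that of the brightest PTGS1 probe, of 9869 genes searched, were NOS2 (r = 0.99), PLA2G4A (r = 0.99) and RNF122 (r = 0.99), and 123 genes reached 0.9. For PTGS2 they were UBB, FRYL and TLNRD1 (each r = 0.99), and 204 genes reached 0.9. Over these arrays PTGS2 correlated at 0.81 with the brightest PTGS1 probe and at 0.88 and -0.26 with its other probes. On its brightest probe HPGD was above the floor in N7 alone, and on its other probe in N2 alone, so the genes most like it (GJB1, EGFLAM and NUDT11) follow the brightest probe and are genes with high signal in N7, such as GJB1 at 5050 in N7 and 228 to 319 in the other lines. These 6 points share arrays and lines, and N7 is lowest or highest in most of these patterns, so the correlations are descriptions.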
